A study of Mus musculus with 2 samples.

Results

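The cells described here were CD45+, Lin-, Thy1.2+ cells of mouse skin, labelled as innate lymphoid cells by the sort, that held much Cd3g RNA and no RNA of the 3 type 2 cytokine genes Areg, Il13 and Il5. They were chosen from cell set 1 of the deposited table by 4 limits on unique molecular identifiers (UMIs), molecular tags that let copies of 1 RNA molecule be counted once. A cell had to hold at most 10% mitochondrial UMIs, fewer than 3 UMIs of Mki67, Top2a and Birc5 together, at least 5 UMIs of Cd3g, and 0 UMIs of Areg, Il13 and Il5. This selection found 98 members among 990 kept non-cycling cells of set 1, a share of 9.90% (8.11 to 11.9%). Set 1 held 1471 of the 5246 cells in all. The comparison group was the 492 non-cycling cells of set 1 with at least 3 UMIs of Areg, Il13 and Il5 in sum, called type-2-positive here.

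The series profiled innate lymphoid cells of C57/BL6 skin, with 1 library from mice at postnatal day 1 and 1 from mice at postnatal day 14. The labels name no treatment, and all cells shared 1 sort, for CD45+, Lin-, Thy1.2+ cells, after digestion with collagenase A. The lineage antibodies and the number of animals are not in the labels. RNA was captured with the 10x Genomics 5' kit v1, and the table gives UMI counts of 18786 genes. Cell names end in 1 of 2 suffixes, which match neither day, so cell set 1 is not equated with an age and the days were not compared. The labels tie no suffix to a library and give no replicate, so cells were not treated as replicates and no test was run. Levels are UMIs per 1000000 (CPM) of the summed group, and every interval in the text is an exact 95% interval that covers counting error only.

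Cd3g encodes CD3 gamma, 1 of the invariant chains that carry the signal of the T cell receptor, and a receptor needs the delta, epsilon and zeta chains as well. Group 2 innate lymphoid cells (ILC2s) carry no rearranged antigen receptor, depend on the transcription factors GATA3 and ROR alpha, and make IL-5, IL-13 and the epithelial growth factor amphiregulin when alarmins reach them. Skin also holds gamma delta T cells, which do carry CD3 and can express Thy1, and innate precursors may transcribe single CD3 genes.

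Levels of the label's genes and of receptor genes describe the members. The 98 members held 919 CPM of Cd3g (859 to 982), a high level that the rule itself set. Thy1, the antigen of the sort, was seen in 86.7% of them at 258 CPM (226 to 292). Cd3g was chosen for being high and the other invariant chains were not, so their levels are no like comparison. The other invariant chains were far scarcer: Cd3e stood at 29.8 CPM with a UMI in 11.2% of members, Cd247, the zeta chain, at 21.3 CPM, and Cd3d at 18.1 CPM, of which 58.8% came from 1 member. Trac, the constant gene of the alpha chain, was seen in 7.14% of members and 12.8% of type-2-positive cells. Trbc1 and Trbc2, the beta constants, were seen in 77.6% and 89.8% of members and in 69.9% and 88.6% of type-2-positive cells. Scarce Trac beside frequent beta constants was thus not particular to the members. Cd5, Cd6 and Cd8b1, which mark mature T cells, had no UMI in any member, and Cd4 had UMIs in 3. The members therefore were called by their rule, and neither T cells nor ILC2s were named among them.

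Promoter sequences are shown for 3 genes around which the selection turns, Cd3g and Areg, which the rule used, and Cd3d, the neighbour of Cd3g. Cd3g lies on the minus strand at chr9:44969572-44980431 and Cd3d on the plus strand at chr9:44981786-44987339, so their starts are neighbours and they are transcribed away from each other. Their RNA levels lay far apart in the members, for which the rule had chosen Cd3g to be high. Areg lies at chr5:91139599-91148432 on the plus strand. Each sequence gives the 250 bases before the RefSeq start (GRCm38.p6), 5′ to 3′ on the gene's strand. In the Cd3g stretch, capitals mark AGATAA, a core motif of GATA factors. In the Areg stretch they mark the cyclic AMP response element TGACGTCA, and the Cd3d stretch held neither.
Cd3g (chr9:44980432-44980681, minus strand): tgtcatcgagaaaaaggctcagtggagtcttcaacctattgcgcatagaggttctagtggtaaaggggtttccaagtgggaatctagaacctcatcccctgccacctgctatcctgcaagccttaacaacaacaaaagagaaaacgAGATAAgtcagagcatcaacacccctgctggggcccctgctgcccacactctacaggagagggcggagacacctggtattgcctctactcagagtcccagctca
Cd3d (chr9:44981536-44981785, plus strand): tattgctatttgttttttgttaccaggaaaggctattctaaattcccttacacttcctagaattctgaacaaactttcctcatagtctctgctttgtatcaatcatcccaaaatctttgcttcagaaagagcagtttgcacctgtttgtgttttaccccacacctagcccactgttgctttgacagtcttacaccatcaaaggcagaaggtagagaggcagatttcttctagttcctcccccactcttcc
Areg (chr5:91139349-91139598, plus strand): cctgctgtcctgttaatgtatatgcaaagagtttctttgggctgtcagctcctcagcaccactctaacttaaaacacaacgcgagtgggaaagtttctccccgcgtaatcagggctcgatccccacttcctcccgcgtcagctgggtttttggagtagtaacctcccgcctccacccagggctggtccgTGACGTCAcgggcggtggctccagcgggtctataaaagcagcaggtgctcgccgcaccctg
The GATA core lay at -104 to -99 of Cd3g, and AGATAA also stood at -81 to -76 of the Il13 promoter. Over 32851 RefSeq promoters of the same length, AGATAA or its reverse complement TTATCT was found in 9.99% and TGACGTCA, which reads the same on both strands, in 1.55%. Cd3d held no match either to the AP-1 motif TGANTCA (6.75% of promoters) or to the ETS core CCGGAAGT on either strand (2.88%). These matches describe letters in a window.

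The members sat on a continuous scale of both measures that chose them. Cd3g UMIs per member ran from 5 to 64, with a median of 7 and quartiles at 6 and 10. In the type-2-positive cells they ran from 0 to 63 with a median of 4, and 211 of those 492 cells also reached 5 UMIs. The type 2 sum was 0 in each member by rule and had a median of 10 UMIs and a highest value of 206 in the comparison cells. No gap in Cd3g UMIs separated the members from other cells at the Cd3g limit. At the limit, 19 members held exactly 5 Cd3g UMIs, and just outside it 22 type-2-negative cells held 4, while 51 cells with enough Cd3g had a single type 2 UMI. Gata3 stood at 424 CPM (328 to 538) in the members at exactly 5, at 218 (152 to 304) in the cells with 4 and at 474 (417 to 537) in those with 1 type 2 UMI. Trdc, the constant gene of the delta chain, stood at 25.3 (6.89 to 64.8), 31.2 (10.1 to 72.8) and 24.5 CPM in the same order. The values at 5 and 4 Cd3g UMIs rest on 4 and 5 Trdc UMIs, too few to show whether Trdc stepped at the Cd3g limit. The Gata3 intervals at 5 and 4 did not overlap, nor did those of Nfkbia, at 1202 CPM (1037 to 1385) and 493 (390 to 614). Those of Nr4a1, Thy1, Cd163l1, Nkg7 and Ptgs2 overlapped. At the type 2 limit the like group is all 98 members, since both sides then hold at least 5 Cd3g UMIs. Trdc stood at 57.5 CPM (43.2 to 75.03) in them, above the 24.5 (13.03 to 41.8) of the 51 cells with 1 type 2 UMI.

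**Figure D1:**
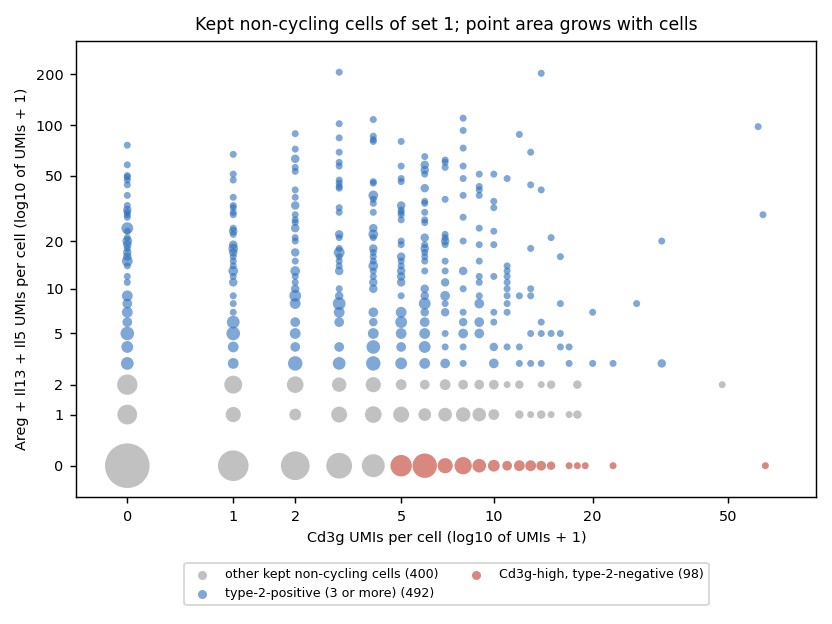
Cd3g UMIs (x axis) against the sum of Areg, Il13 and Il5 UMIs (y axis) in each kept non-cycling cell of set 1, both on a log10(UMIs + 1) scale, with point area growing with the number of cells at that position. The 98 members (red) lie on the bottom line from 5 UMIs of Cd3g, and the 492 type-2-positive cells (blue) cover the whole range of Cd3g.

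Absence of type 2 RNA was less frequent where Cd3g was high, and depth moved with it. No type 2 UMI was seen in 45.7% (38.5 to 53.2%) of the 188 cells without Cd3g, in 28.4% of the 299 cells with 2 to 4 Cd3g UMIs and in 24.3% (18.3 to 31.2%) of the 185 cells with 8 or more. Median UMIs per cell went from 7878.5 without Cd3g to 10723 at 8 or more. When cells below 7191 UMIs were left out and the others thinned to that depth, the share was 34.2% (26.6 to 42.5%) of 146 cells without Cd3g and 28.8% (22.6 to 35.6%) of 198 cells at 5 or more, and the intervals overlapped. These values combine the loss of shallow cells with the thinning. The selection itself also depended on depth: after thinning, 62 of 779 cells (7.96%) met the same rule, and 47 of them were members before.

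The members were slightly shallower than the cells they were compared with. Their median was 9317.5 UMIs and 2456 genes per cell, against 10319 UMIs and 2552.5 genes in type-2-positive cells, with mitochondrial UMIs at 3.28% and 3.20%. Of the 98 members, 42 held Xist but no Y-linked RNA, 36 held Y-linked RNA but no Xist and 2 held both, so animals of both sexes were pooled. None of the 4 barcodes present in both sets belonged to a member, no doublet caller was applied here, and leaving out cells over 2 times the median UMIs of the set removed no member. Marker sums of other cell types were low in both groups: keratinocyte 219 and 269 CPM, fibroblast 111 and 87.0, dendritic cell 33.0 and 51.7, endothelial 13.8 and 8.91, erythroid 63.9 and 56.4, mast cell 44.7 and 56.6, B cell 14.9 and 12.8 and macrophage 3.19 and 4.26, with 6 of 8 macrophage genes at 0. Of 7131 genes with at least 50 UMIs over both groups, 16 (0.224%) were at least 2-fold higher in the members and 105 (1.47%) at least 2-fold lower, on the scale of CPM + 10. The 105 include Areg, Il13 and Il5, which the rule set to 0, and 102 were lower without the rule's genes. Later counts of lower genes between cells without and with type 2 RNA include these 3 genes as well. The median over all 7131 genes was a log2 difference of 0.05, with 4045 genes above 0 and 3086 below. Later counts of list genes above or below 0 are to be read beside these.

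Genes of gamma delta T cells formed the group that stood highest in the members. Of 7 measured marker genes, 6 lay above 0 and 4 were at least 2-fold higher, with a median log2 difference of 1.18. Trdc stood at 57.5 CPM (43.2 to 75.03) against 14.5 (11.4 to 18.2), a ratio of 3.96 (2.74 to 5.69), and was seen in 28.6% of members and 12.4% of type-2-positive cells. Cd163l1, which encodes the scavenger receptor SCART1 of IL-17-producing gamma delta T cells, stood at 127 CPM against 32.4, a ratio of 3.92 (3.07 to 4.99). The related receptor gene 5830411N06Rik was 3.04-fold higher, at 50.1 against 16.5 CPM. Tcrg-C4, a gamma chain constant gene, stood at 59.6 against 18.4 CPM, a ratio of 3.24 (2.29 to 4.56), and Tcrg-C1, another such constant, at 28.8 against 10.5. Maf, a transcription factor of IL-17-producing lymphocytes, was less far apart, at 268 against 157 CPM, and the variable gene Trdv4 was at 57.5 against 63.3. Sox13, a transcription factor of the same lineage, and Blk, a kinase of its signalling, had no UMI in any member, nor did Il17a. Among type-2-positive cells Sox13 was seen in 2.85%, Il17a in 2.03% and Blk in none.

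The share of members with a UMI of these genes was compared with background and at equal depth. Cluster 6 of the whole-set clustering, 16 cells led by the antigen-presentation genes H2-Aa and H2-Ab1 and by Il22, with a median of 8236 UMIs, gave the background. In it Cd3g was seen in 1 cell (6.25%, 0.158 to 30.2%), and Trdc, Tcrg-C4, Cd163l1 and Cd3e in none, which allows up to 20.6% of its cells. Thinned to 7191 UMIs, 73 members and 413 comparison cells were left, and Trdc was seen in 24.7% (15.3 to 36.1%) and 8.72% (6.18 to 11.9%) of them. Tcrg-C4 was seen in 19.2% (10.9 to 30.1%) and 9.44% (6.80 to 12.7%), and Cd163l1 in 19.2% and 9.69%, where the intervals of the groups overlapped, unlike those of Trdc. Col3a1 and Hbb-bs, a collagen and a globin that lymphocytes should lack, were seen in 23.3% and 21.9% of the thinned members and in 19.6% of the thinned comparison cells in each case. The member shares of Trdc, Tcrg-C4 and Cd163l1 were thus near those of such genes, so the share by itself is not read as expression. The gap between the groups was wider for Trdc than for Col3a1 or Hbb-bs. In cluster 6, where Trdc, Tcrg-C4 and Cd163l1 were not seen, Col3a1 was seen in 25% (7.27 to 52.4%) and Hbb-bs in 31.25% (11.02 to 58.7%). With 16 cells the intervals overlapped, so the backgrounds of these genes could not be told apart.

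The gamma delta genes were not spread evenly over the members. For each gene, the 5 members with most UMIs held 51.9% of those of Trdc, 51.8% of Tcrg-C4 and 50.4% of Cd163l1. Of the 98, 45 (45.9%) held a UMI of a delta or gamma constant gene, against 27.8% of type-2-positive cells, 37 held Cd163l1 or 5830411N06Rik, and 22 held both kinds. Cd3e or Cd3d was seen in 15 members, 12 of which also held a gamma or delta constant. The 45 cells with such a constant had 214 CPM of Cd163l1, 49.2 of Cd3e and 34.2 of Cd3d, and the other 53 had 40.3, 10.6 and 2.12. Cd3g itself was alike in both, at 965 and 874 CPM. Median depth was 10092 and 8632 UMIs in the same order, and the part of depth in this split was not tested. The list sum per cell had quartiles at 214, 496 and 900 CPM in members and 100, 239 and 450 CPM in type-2-positive cells, so the groups overlapped, and 28 members (28.6%) lay below the comparison median. Without any cell, in either group, that held Cd3e, Cd3d, Trac or Trdc, the median over the gamma delta list was 0.58 in place of 1.18.

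The difference in gamma delta genes was also present among cells with the same Cd3g limit, a comparison that shares its members and comparison cells with the first. Against the 211 type-2-positive cells with at least 5 Cd3g UMIs, where 15 of 5580 genes (0.269%) were 2-fold higher and 66 (1.18%) 2-fold lower, 4 of 7 gamma delta genes were 2-fold higher. Their Cd3g stood at 815.5 CPM, and the log2 difference to the members was 0.17. Trdc stood at 20.3 CPM in them, a log2 difference of 1.16, and Cd163l1 differed by 1.32 and Tcrg-C4 by 1.20. The same type 2 split among cells with at most 1 Cd3g UMI, 126 cells without and 121 with type 2 RNA, gave mixed values: Trdc stood at 6.59 and 11.2 CPM, a log2 difference of -0.35, and Tcrg-C4 at 15.4 and 19.7, a difference of -0.23. Cd163l1 stood at 46.1 and 22.3 CPM there, a difference of 0.80, and 3 of the 4 measured genes of the list lay above 0, 1 of them 2-fold, with a median of 0.72. Over all genes of that pair 89 of 4387 genes (2.03%) were 2-fold higher and 84 (1.91%) lower, and 2307 lay above 0 and 2080 below. The 126 Cd3g-low type-2-negative cells held summed erythroid and mast cell markers at 1388 and 534 CPM, against 61.0 and 72.1 in their comparison cells, and the part of those cells in the values was not tested. Split by Cd3g in place of type 2 RNA, the members against those 126 cells had 37 of 4200 genes (0.881%) 2-fold higher and 150 (3.57%) lower, and 3 of 7 gamma delta genes were 2-fold higher with a median of 0.98. Among type-2-positive cells, the 211 with high Cd3g against the 121 with at most 1 UMI had 17 of 5677 genes (0.299%) higher and 25 (0.44%) lower, none of 6 measured gamma delta genes was 2-fold apart and the median was 0.08.

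Cytotoxic and natural killer genes were higher in part, and some of them rested on 1 cell. Nkg7, a granule membrane gene of cytotoxic lymphocytes, stood at 153 CPM (129 to 181) against 64.9, a ratio of 2.36 (1.93 to 2.88), and was seen in 49.0% and 22.6% of cells. Thinned to equal depth its shares were 42.5% (31.0 to 54.6%) and 19.1% (15.4 to 23.3%). The 8 measured ITAM adaptor and natural killer receptor genes all lay above 0, with a median of 0.63, and 1 of them was 2-fold higher. Klrk1, which encodes NKG2D, stood at 147 against 90.5 CPM, and Cd160, a receptor of cytotoxic lymphocytes, at 37.3 against 11.04. Gzma, the gene of granzyme A, stood at 109 against 8.52 CPM, but 99.0% of its member UMIs came from 1 cell, as did 80.6% of those of Gzmb. Cd7, a surface protein of early lymphoid and natural killer cells, stood at 82.0 against 25.2 CPM with 33.8% in 1 member, and without cells holding Il22 or at least 2 UMIs of Fcer1g and Tyrobp in sum its log2 difference was -0.078. Ifng and Eomes, of natural killer cells and group 1 innate lymphoid cells, had no UMI in any member. Against cells with the same Cd3g limit, 5 of the 8 adaptor and receptor genes lay above 0, with a median of 0.51. Of 6 type 1 and cytotoxic effector genes 3 did, with a median of -0.0085, in place of 4 of 6 and 0.43 against all type-2-positive cells. Over all genes 3126 of 5580 lay above 0 against the cells with the same Cd3g limit. The counts of 5 of 8 and 3 of 6 are near that share and are not read as a result. The Cd3g-low cells without type 2 RNA against those with it had medians of 1.23 over the 8 adaptor and receptor genes and 1.30 over 4 effector genes, so higher values of these lists were not particular to the members.

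A few genes of no list were also among those furthest above. Actn2, an actin crosslinking protein, stood at 47.9 against 13.2 CPM, a ratio of 3.64. Selenop, a secreted selenium carrier, stood at 56.4 against 22.5 CPM, and Gmnn, which restrains DNA replication licensing, at 36.2 against 14.5. Cebpzos was at 53.2 against 23.8 CPM and Fam53a at 33.0 against 13.4. Lgals3, which encodes galectin 3, stood at 194 against 71.1 CPM, and 26.9% of its member UMIs came from 1 cell.

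**Figure D2:**
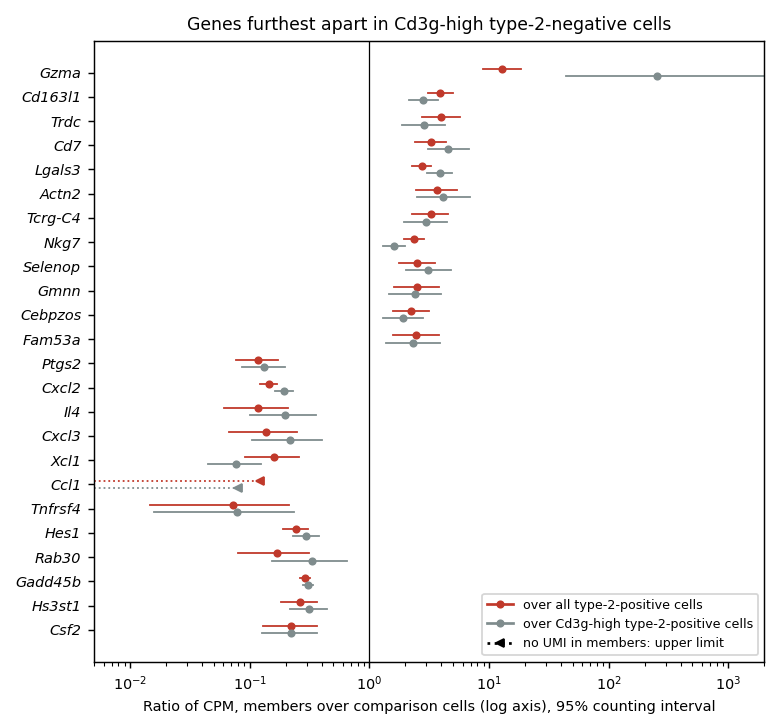
Ratio of CPM in the 98 members over comparison cells (log x axis) for the 12 genes furthest above and the 12 furthest below, with 95% counting intervals; red compares with all 492 type-2-positive cells and grey with the 211 that reach the same Cd3g limit, and arrowheads are upper limits where members held no UMI. Cd163l1, Trdc and Tcrg-C4 lie above 1 against both groups and Ptgs2, Cxcl2 and Gadd45b below 1 against both; the grey Gzma interval runs past the axis.

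Other effector genes of type 2 cells were low together with the 3 that the rule set to 0. Of 8 further type 2 effector genes, 7 lay below 0 and 5 were at least 2-fold lower, with a median of -1.41. They are co-expressed with the rule's genes, so these values describe the selection. Ptgs2, the inducible enzyme of prostaglandin synthesis, stood at 28.8 CPM (18.9 to 41.8) against 245, 8.54-fold lower (5.838 to 13.004), and was seen in 8.16% and 37.8% of cells. The neutrophil chemokine genes Cxcl2 and Cxcl3 stood at 157 against 1082 CPM, 6.91-fold lower (5.87 to 8.20), and at 11.7 against 86.0, 7.34-fold lower. Il4 stood at 12.8 against 108 CPM, 8.49-fold lower (4.82 to 16.5), and Csf2, the gene of the myeloid growth factor GM-CSF, at 18.1 against 81.2. The chemokine gene Ccl1 had no UMI in members and 32.5 CPM in the comparison cells, at least 10.2-fold lower against a floor of 3 UMIs over the group. Tnfrsf4, the gene of the costimulatory receptor OX40, had 3 UMIs, a ratio of 13.8 (4.67 to 67.5) in favour of the comparison cells. Il1rl1, the gene of the IL-33 receptor, stood at 6.39 against 36.0 CPM, 5.64-fold lower, while the neuropeptide gene Calca was nearer, at 644 against 818.

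Not all lower genes were cytokines or chemokines. Hes1, a transcriptional repressor downstream of Notch, stood at 77.7 against 319 CPM, 4.104-fold lower, and Gadd45b, a stress-response gene, at 499 against 1711, 3.43-fold lower (3.12 to 3.77). Hs3st1, a heparan sulfate sulfotransferase gene, stood at 40.5 against 155 CPM, and Rab30, a small GTPase gene, at 10.6 against 63.3. The chemokine gene Xcl1 was at 18.1 against 114 CPM, but 51.5% of the comparison UMIs came from 1 cell.

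Transcription factors of the ILC2 lineage were present in most members at lower levels. Gata3, the defining factor, had 0 UMIs in the lowest member, a median of 2 and 19 in the highest, and 0, 6 and 37 in type-2-positive cells, so the ranges overlapped. It stood at 393 CPM (354 to 435) against 779 (755 to 804), 1.98-fold lower (1.78 to 2.21), and was seen in 73.5% of members and 90.7% of comparison cells. Thinned to equal depth the shares were 72.6% and 88.4%, and in cluster 6 a Gata3 UMI was seen in 43.8% of cells. Rora had a median of 10 UMIs against 17.5, and stood at 1242 against 2048 CPM, 1.65-fold lower, with a UMI in 94.9% and 97.6% of cells. Id2, the inhibitor of E proteins shared by innate lymphoid cells, stood at 724 against 1104 CPM, and Bhlhe40, a cytokine-linked repressor, at 53.2 against 126. Ets1 was at 552 and 556, and Bcl11b, which T cells and ILC2s share, at 130 against 104. Over the 11 measured factors 9 lay below 0, 1 of them 2-fold, with a median of -0.72. Il7r, the IL-7 receptor of all such cells, was at 525 and 504 CPM.

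Genes of the immediate early response were lower in most members. Nr4a1, an orphan nuclear receptor induced within minutes of activation, had quartiles at 0, 1 and 3.75 UMIs in members, with 26 in the highest cell, and at 2, 5 and 13 in type-2-positive cells, with 90 in the highest. It stood at 310 CPM (275 to 348) against 874, 2.82-fold lower (2.51 to 3.19). Thinned to equal depth it was seen in 47.9% (36.1 to 59.96%) and 81.8% (77.8 to 85.4%) of cells. Atf3, a stress-induced factor, stood at 454 against 1120 CPM, 2.47-fold lower, and Nr4a3, a relative of Nr4a1, at 49.0 against 114. Junb, an AP-1 subunit, had a median of 10.5 UMIs against 25, and Fos, its partner, stood at 513 against 724 CPM. Of 18 measured genes of this list, 16 lay below 0, 3 were 2-fold lower and the median was -0.68. Myc and Dusp2 were the 2 above, at 24.5 against 19.2 and 127 against 78.4 CPM. The sum per cell had a median of 4372 CPM against 7999, and 71 members (72.4%) lay below the comparison median.

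Feedback genes of NF-kB, the factor that alarmin receptors activate, were lower as well. All 11 measured genes lay below 0 and 7 were at least 2-fold lower, with a median of -1.07. Nfkbia, which encodes the inhibitor that NF-kB induces against itself, had quartiles at 1, 3 and 6.75 UMIs in members and 4, 12.5 and 28 in the comparison cells, and its highest cells held 105 and 114. It stood at 855 CPM (797 to 916) against 1887, 2.21-fold lower (2.05 to 2.37). In the 51 cells with at least 5 Cd3g UMIs and 1 type 2 UMI, Nfkbia stood at 836 CPM (760 to 917), level with the members. Nr4a1 stood at 512 CPM (453 to 576) in those 51 cells, above the 310 of the members. Rel, an NF-kB subunit, stood at 208 against 524 CPM, 2.52-fold lower, and Birc3, an inhibitor of cell death, at 27.7 against 76.9. Tnfaip3, the deubiquitinase A20, was at 287.5 against 616.5 CPM, while Relb, another subunit, was at 66.0 and 72.2. The sum per cell had quartiles at 698, 1219 and 2364 CPM in members and 1822, 3477 and 6130 in type-2-positive cells, and 81 members (82.7%) lay below the comparison median. Smaller differences ran through heat shock genes, where 10 of 11 lay below 0 with a median of -0.47, and survival genes, where 8 of 10 did with a median of -0.51. Hspb1, a small heat shock protein gene, was at 79.9 against 194 CPM, but among cells with Y-linked RNA only its log2 difference was 0.092. Collagenase digestion and sorting precede all of these counts, and the part of handling in these genes was not tested.

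The response genes were also lower against the 211 type-2-positive cells with the same Cd3g limit. Those cells are part of the 492 and the members are the same, so this is no separate finding. The split was again by type 2 RNA. Nr4a1 differed by -1.55 on the log2 scale, Nfkbia by -1.01 and Rel by -1.04, and the medians were -0.83 over 10 NF-kB genes and -0.67 over 17 early response genes. Gata3 differed by -0.87 and Rora by -0.49. Between the Cd3g-low cells without and with type 2 RNA, Nr4a1 differed by -1.06 and Gata3 by -1.51, while Rel, at 573 and 574 CPM, and Junb, at 3162 and 3118, were level. The NF-kB median was -0.18 over 10 genes there, with 9 below 0, and the early response median was -0.43 over 15 genes, with 11 below 0. The difference between these 2 pairs of groups was not tested, since each is a description of cell set 1 without replicates.

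Cytoskeletal genes were higher, each by a small amount. All 15 measured genes of the list lay above 0 and none reached 2-fold, with a median of 0.38. The median was 0.21 against cells with the same Cd3g limit, and 0.37 between the Cd3g-low cells without and with type 2 RNA. Actb, the gene of beta actin, had a median of 43.5 UMIs against 27, and stood at 5253 against 3389 CPM. The calcium-binding S100a6 and S100a4 stood at 3400 against 2069 CPM and 2630 against 1725, and Tmsb4x, which binds actin monomers, at 11727 against 8773. In sum these genes stood at 42635 CPM against 31500. The sum per cell had a median of 40992 CPM against 29038, and 21 members (21.4%) lay below the comparison median.

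**Figure D3:**
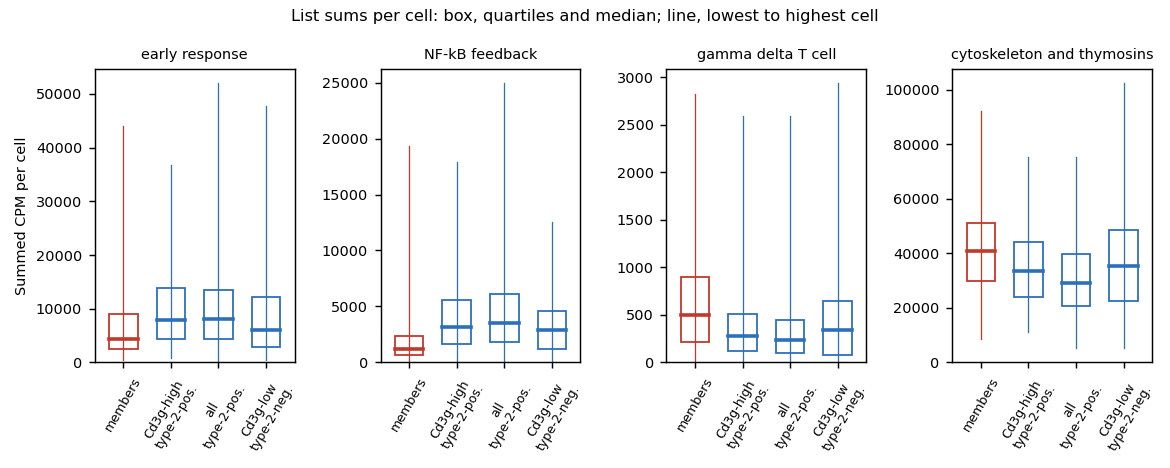
Summed CPM per cell of 4 gene lists (y axes) in members, in type-2-positive cells with the same Cd3g limit, in all type-2-positive cells, and in type-2-negative cells with at most 1 Cd3g UMI; boxes span the quartiles with the median as a thick line, and thin lines run from the lowest to the highest cell. Members have the lowest medians of early response and NF-kB genes (4372 and 1219 CPM) and the highest medians of gamma delta and cytoskeletal genes (496 and 40992 CPM), and all ranges overlap.

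Genes of homing and costimulation lay on both sides of 0. Ccr2, a receptor that leads cells out of blood into tissue, stood at 169 against 93.6 CPM, Selplg, the selectin ligand, at 137 against 84.6 and S1pr1, which guides exit into lymph, at 53.2 against 31.2. Cd69, which holds cells in tissue, stood at 115 against 209 CPM and Ccr4, a skin-homing receptor, at 4.26 against 20.7. Thy1, a gene that named the selection but was not in its rule, was 1.62-fold higher (1.40 to 1.88), with a median of 2 UMIs per member against 1, and differed by 0.39 on the log2 scale from cells with the same Cd3g limit. The costimulatory gene Icos was at 838 against 1097 CPM. Without Cd3g, the antigen receptor list had a median of 0.13. Oxidative phosphorylation and glycolysis had medians of 0.14 and 0.02, near the median of all genes.

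**Figure D4:**
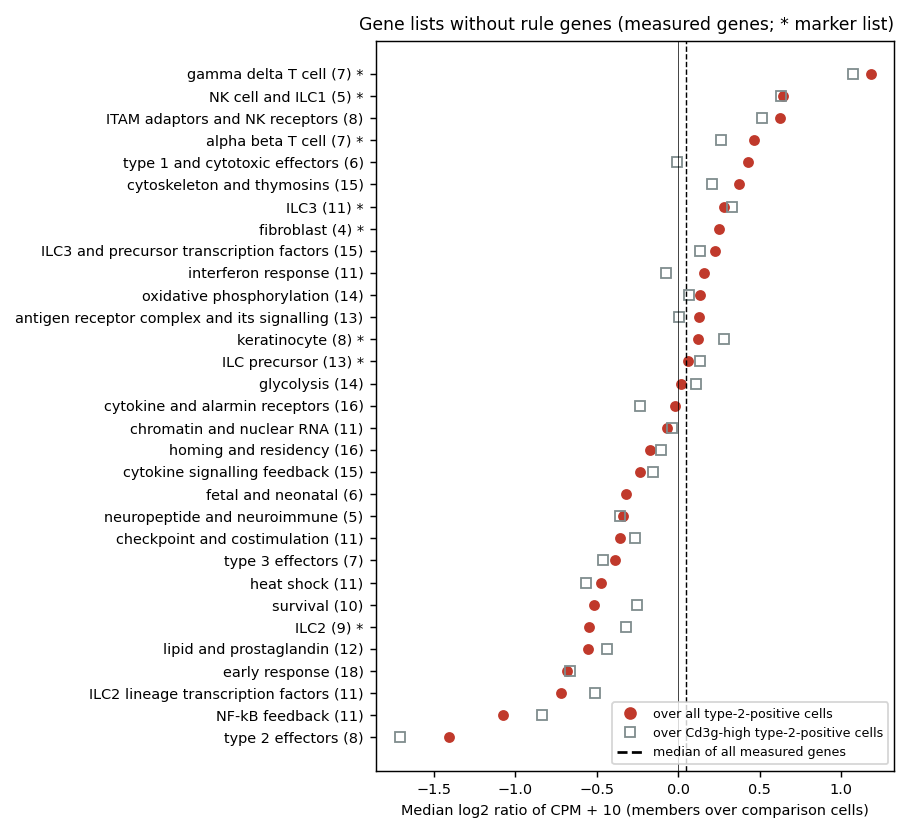
Median log2 difference of CPM + 10 (x axis) per gene list, without the rule's genes and with the number of measured genes in parentheses, for members against all type-2-positive cells (filled) and against those with the same Cd3g limit (open squares); an asterisk marks lists of cell type markers, and the dashed line is the median of all genes, 0.05. The gamma delta list stands at 1.18 and 1.07, and the type 2, NF-kB, ILC2 factor and early response lists have the lowest filled points; among the open squares heat shock, at -0.56, lies below the ILC2 factors, at -0.51.

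The members came from several clusters of set 1. When all kept cells were clustered into 7 groups, 35 members (35.7%, 26.3 to 46.0%) fell in cluster 4, whose leading genes were Cma1, Cpa3, Cd200r1, Gzmb and Lgals3, and 22 (22.4%) in cluster 2, led by Ccr6, Dusp2, Tspan32 and Klf2. Another 12 each fell in cluster 0 (Hspa1a, Il4, Atf3 and Nr4a1), cluster 3 (Il5, Il1rl1 and Calca) and cluster 5 (Xcl1, Fcer1g, Tyrobp and Cd7), 5 in cluster 1 and none in cluster 6. Type-2-positive cells had 18.5% of their number in cluster 4 and 7.11% in cluster 2. The clusters were left unnamed, and since the clusters were made from the same cells and counts, these shares are descriptions.

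Members of different clusters were unlike each other. Gata3 stood at 555 CPM in the 35 members of cluster 4, at 349 in the 22 of cluster 2 and at 72.4 in the 12 of cluster 5. Nr4a1 stood at 164, 285 and 172 CPM in the same order, and at 1561 in the 12 members of cluster 0, whose leading genes include it. Calca was at 817 CPM in cluster 4 and 25.9 in cluster 2, while Thy1 was at 212 and 492. Trdc was seen in some members of each cluster that held any, at 52.9 CPM in cluster 4, 32.4 in cluster 2, 68.4 in cluster 0 and 109 in cluster 5. The value in cluster 5 rests on 12 UMIs in 25% of its 12 members. Fcer1g, an ITAM adaptor of natural killer cells, stood at 570 CPM in the members of cluster 5, whose leading genes include it.

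The same rule applied to cell set 2 gave 177 members of 3331 kept non-cycling cells (5.31%, 4.58 to 6.13%), and 1763 type-2-positive cells. Set 2 was shallower, with a median of 4759 UMIs in its members. Of 8231 genes, 27 (0.328%) were 2-fold higher and 138 (1.68%) 2-fold lower, and 4857 lay above 0 and 3374 below. The gamma delta list had a median of 0.94 over 6 genes, with Trdc at 151 against 41.9 CPM (log2 difference 1.63) and Cd163l1 at 60.3 against 21.3 (1.17). Cd3e differed more than in set 1, at 44.1 against 1.64 CPM (2.22). Gata3 stood at 268 against 739 CPM (-1.43) and Rel at 380 against 1069 (-1.47), and NF-kB genes had a median of -0.71, with all 11 below 0. The early response list was near 0 there, with 8 genes above and 12 below and a median of -0.13, and Nr4a1 was at 564 against 778 CPM (-0.46). Whether the sets differ in this was not tested.

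Of 6969 genes measured in both sets, 5 were at least 2-fold higher in both selections, Cd163l1, 5830411N06Rik, Trdc, Cd3e and Actn2. They were 33.3% of the 15 higher in set 1 and 27.8% of the 18 higher in set 2. On the lower side 37 genes were shared, 37.8% of 98 and 29.4% of 126, Ptgs2 (-1.41 in set 2) and Cxcl2 (-2.19) among them. Xcl1 and Lgals3 went opposite ways, with set 2 values of 0.72 and -1.08.

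**Figure D5:**
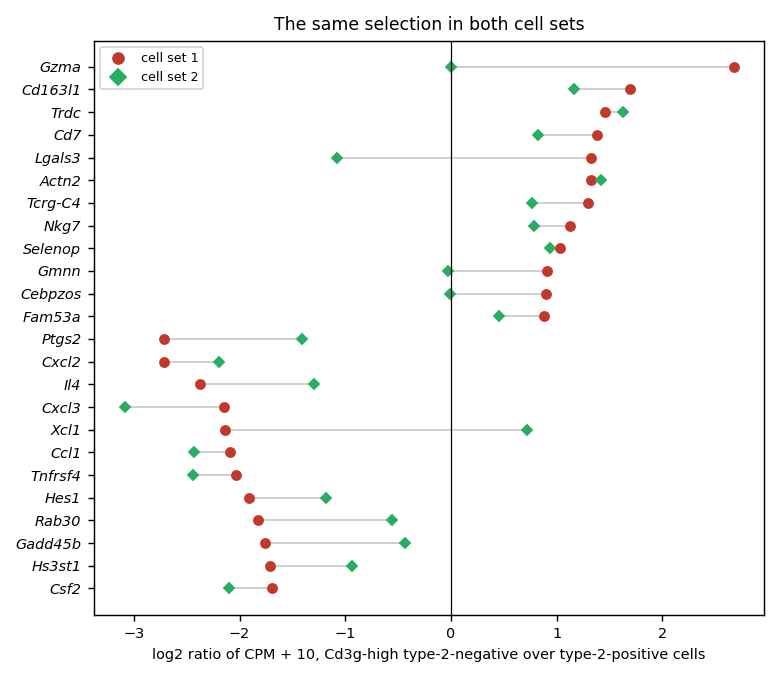
Log2 difference of CPM + 10 (x axis) between Cd3g-high type-2-negative and type-2-positive cells for the 12 genes furthest above and the 12 furthest below in set 1, in set 1 (red circles) and in set 2 (green diamonds). Trdc (1.63 in set 2), Actn2 (1.42) and Cd163l1 (1.17) lie above 0 in both sets, while Lgals3 (-1.08) and Xcl1 (0.72) have the opposite sign in set 2.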

How the data were processed

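The deposited table holds UMI counts per gene and cell, unscaled whole numbers. The submitters' processing notes name mm10 as the build, Cell Ranger 3.1.0 and Seurat 4.1.0, per the labels, with no settings. Both libraries are in 1 table whose cell suffixes match no day, so it was treated as pooled, no day was compared and no replicate error exists. No column of values was left unused (0).

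UMIs were summed per gene and group with Python 3.11.15 (numpy 2.4.6, scipy 1.17.1) and given as CPM. Poisson intervals belong to levels, binomial intervals to ratios, and Clopper-Pearson intervals to shares of cells. Log2 differences are of CPM + 10, so they understate low genes. Genes with at least 50 UMIs over both groups count as measured, and 2-fold as higher or lower. A count of 0 was taken to allow 3 UMIs. Groups differ in depth, so shares were repeated on cells thinned to 7191 UMIs. Set 1 was clustered with scanpy 1.11.5 (2000 variable genes, 30 components, 15 neighbours, resolution 0.5); TMM factors came from edgeR 4.0.16. The CPM ratio, its interval and the 2-fold count were tested on simulated Poisson counts of summed groups, without spread between cells. The other steps were not tested in this way.

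Named genes were the 12 furthest above and below among genes with at least 100 UMIs, up to 4 further genes of each of 24 pathway lists, and the markers. The other genes named were chosen after their values were seen. The members and all lists were chosen with earlier results of these data known. Promoters and their motif shares are from RefSeq (GRCm38.p6), and gene positions from GENCODE M21 on GRCm38, the assembly that mm10 names. Alternatives changed the pseudocount, gene minimum, Cd3g and type 2 limits, mitochondrial and cycling limits, depth, scaling, and the cells entered.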

Additional observations from a re-analysis of the deposited data

Results flagged for a closer look

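Lgals3 had opposite signs in the sets. In set 1 its log2 difference between Cd3g-high type-2-negative and type-2-positive cells was 1.33, with 26.9% of the member UMIs in 1 cell and a UMI in 33 members. In set 2 it was -1.08, at 40.6 against 96.9 CPM. The difference between the sets was not tested.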

How the results depend on the processing

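No paired analysis was possible because the table pools 1 library of each day and its cells carry no replicate number. Of 16 genes higher and 105 lower, a pseudocount of 1 CPM gave 89 and 242, a minimum of 200 UMIs gave 4 higher, Cd3g at 3 or more UMIs 9 higher, Cd3g at 8 or more 41 higher and 191 lower, cells with Xist only 33 higher, and cells with Y-linked RNA only 27 higher and 170 lower. The gamma delta median (1.18) was 0.62 with no gene minimum and 0.58 without cells holding Cd3e, Cd3d, Trac or Trdc. In the latter setting Trdc, a gene of that list, held no UMI by choice of cells and left the median. The early response median (-0.68) was -0.89 without cells holding Il22 or at least 2 UMIs of Fcer1g and Tyrobp in sum, and the NF-kB median (-1.07) was -0.72 with Xist-only cells. The cytoskeletal median (0.38) was 0.23 under TMM, which shifted the median gene by -0.12, 0.31 at 3 or more Cd3g UMIs, 0.46 against cells with at least 10 type 2 UMIs and 0.24 with Xist-only cells. Members made up 7.96% of cells after thinning in place of 9.90%. At 2000 UMIs the shares of members with Trdc, Nkg7 and Nr4a1 were 10.2%, 20.4% and 29.6%. The sign turned for Cd7 (-0.078 without the same cells) and Hspb1 (0.092 with Y-only cells). The cause of these moves was not tested. Of 45 named genes at least 2-fold apart, the other 43 kept their direction in every one of the 18 settings in which they were measured. Areg, Il13 and Il5 are among the 43, and the rule fixed their direction in every setting. Many of the rest were named for the size of their ratio in these same cells, so this count is no independent check. Leaving out the member with most Gzma, a setting chosen after seeing the data, gave 13 higher and 104 lower. With 1 UMI worth 1.06 CPM in the members, genes under 3.19 CPM are below what 3 UMIs allow. The 98 cells have no replicate and carry no error between animals.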
